A study of Homo sapiens with 12 samples.

Results

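In HK2 cells, 33 of 58288 gene IDs gave clear read counts in control cells but almost none after long-term knockdown of FLCN. A gene was taken if its raw counts summed to 5 or less over the 3 libraries of long-term FLCN knockdown, and to 60 or more in at least 2 of the other 3 groups, with long-term shControl as one of them. Of the 33 genes, 31 are protein-coding, 1 is a long intergenic noncoding RNA and 1 is a processed transcript, and they lie on 17 chromosomes. They include the homeobox factor HOXB13, the ETS factor ERG, the let-7 regulator LIN28A, the fatty acid carrier enzyme CPT1A, the natriuretic peptide NPPB, the amino acid carrier SLC38A5 and the heart actin ACTC1. Counts of all 4 groups chose these genes, so their levels are given as a description. The difference between the 2 short-term groups was tested in a fit of all genes, and its result is read only for the 21 of the 33 that reached the minimum in both of them, a restriction chosen after seeing the data. FAM174B, one of the 33 but not of these 21, had 2 counts in short-term FLCN knockdown as well. It was thus not silent in long-term knockdown alone.

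The 12 libraries come from 1 human cell line, HK2, an immortalized line with the label of proximal tubule cells, grown in DMEM with fetal bovine serum. Short-term cells were harvested below 30 passages and long-term cells above 120 passages by the labels. In each of these, 3 libraries carried a control shRNA (shControl, which the study calls nontarget and the labels list as wild type) and 3 carried an shRNA against FLCN. The groups thus are short-term shControl, short-term FLCN knockdown, long-term shControl and long-term FLCN knockdown. The study's methods describe selected clones, and which clone gave which library is not given in the sources used here, so a change of the clone or culture and a change with the knockdown cannot be told apart. The labels call replicates biological without naming separate cultures, and p-values measure the spread between these libraries.

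FLCN encodes folliculin, a tumor suppressor whose inherited loss causes Birt-Hogg-Dubé syndrome, with skin tumors, lung cysts and kidney cancer. Folliculin acts at the lysosome on Rag GTPases and so on the transcription factors TFEB and TFE3, which bind the DNA word CACGTG. Silent genes differ from weakened ones: a cell line passes its set of closed genes on to daughter cells through DNA methylation at CpG dinucleotides and through histone marks. Read counts show only that polyadenylated RNA was not seen. Missing transcription, unstable RNA and a lost gene copy cannot be told apart by counts, nor, in bulk RNA, fewer expressing cells and less RNA per cell.

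The promoters of 5 of the 33 genes are shown to make visible how unlike the silent genes are in CpG content. Each run is the 250 bases before the RefSeq start of the gene (GRCh38.p14), 5′ to 3′ on the strand of the gene, with every CpG in capitals. SORL1 and ERG have dense CpG, FAM174B and SORL1 hold the word CACGTG, and CPT1A and CLEC4E have few CpG.
SORL1, chr11:121452064-121452313, plus strand: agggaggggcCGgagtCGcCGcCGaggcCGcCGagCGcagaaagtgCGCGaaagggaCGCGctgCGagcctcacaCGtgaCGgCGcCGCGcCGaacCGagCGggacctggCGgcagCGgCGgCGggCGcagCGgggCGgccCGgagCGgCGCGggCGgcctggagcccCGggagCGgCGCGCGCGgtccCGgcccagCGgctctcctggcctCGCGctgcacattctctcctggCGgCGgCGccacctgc
ERG, chr21:38660668-38660917, minus strand: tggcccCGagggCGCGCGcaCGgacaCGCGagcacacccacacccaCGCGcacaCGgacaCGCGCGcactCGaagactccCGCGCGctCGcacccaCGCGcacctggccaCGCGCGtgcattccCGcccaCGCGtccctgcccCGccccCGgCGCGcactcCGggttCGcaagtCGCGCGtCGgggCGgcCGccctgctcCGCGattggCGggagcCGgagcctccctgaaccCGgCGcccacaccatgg
FAM174B, chr15:92655776-92656025, minus strand: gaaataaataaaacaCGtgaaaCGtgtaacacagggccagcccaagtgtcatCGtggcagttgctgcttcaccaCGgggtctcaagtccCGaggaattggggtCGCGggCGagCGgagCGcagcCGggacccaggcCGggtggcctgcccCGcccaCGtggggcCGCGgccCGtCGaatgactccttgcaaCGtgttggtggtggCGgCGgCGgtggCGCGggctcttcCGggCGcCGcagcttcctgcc
CPT1A, chr11:68844278-68844527, minus strand: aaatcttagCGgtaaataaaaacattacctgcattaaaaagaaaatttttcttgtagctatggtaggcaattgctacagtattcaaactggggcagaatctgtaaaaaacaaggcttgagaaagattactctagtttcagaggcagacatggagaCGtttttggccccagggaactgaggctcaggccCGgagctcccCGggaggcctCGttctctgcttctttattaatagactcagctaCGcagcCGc
CLEC4E, chr12:8540906-8541155, minus strand: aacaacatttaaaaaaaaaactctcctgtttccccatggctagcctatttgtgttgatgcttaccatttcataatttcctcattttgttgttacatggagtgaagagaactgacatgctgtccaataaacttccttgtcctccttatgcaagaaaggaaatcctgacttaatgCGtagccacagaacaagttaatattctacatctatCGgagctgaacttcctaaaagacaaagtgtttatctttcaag
The first of these holds 45 CpG, the others 44, 27, 7 and 2 in the order shown.

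Libraries held 5825779 to 8991051 counts. The FLCN transcript itself had 93, 110 and 105 counts in short-term shControl and 47, 45 and 32 in short-term knockdown, 74, 77 and 94 in long-term shControl and 58, 43 and 47 in long-term knockdown. It was thus lower, without overlap, in both knockdowns (edgeR quasi-likelihood test, log2 fold change −1.33, SE 0.179, adjusted p = 1.12e-04 short-term and −0.70, SE 0.178, adjusted p = 0.00611 long-term). Of 18 proximal tubule markers, 6 passed the filter on low counts, among them PAX8 and CDH6, while LRP2, SLC5A1, SLC22A6, SLC22A8 and HNF4A were at 0 in all libraries. The marker list moved with the groups, though its genes went both ways in the long-term comparison, with 2 higher and 2 lower of the 6 (13.7% and 15.8% of all genes tested): its summed level was 883 to 1038 CPM (counts scaled to the library size) in long-term shControl and 2050 to 2307 in long-term knockdown. The number of the 18 at 0 was 7 in short-term shControl, 6 in short-term knockdown, 8 in long-term shControl and 9 in long-term knockdown. Most of that is CDH6, with 5323 counts in long-term shControl and 34917 in long-term knockdown. PAX8 fell from 5434 to 3469 counts (edgeR adjusted p = 2.04e-04) and CDH2 from 6058 to 4775. In short-term shControl and short-term knockdown PAX8 had 3295 and 4152 counts and CDH2 had 4198 and 3365, so long-term shControl was the highest group for both. Of 11 markers of other epithelium and tubule, 6 were tested, and 3 fell and none rose in long-term knockdown, beside the same shares of all genes: CALB1 (89 to 1 counts), KRT7 (303 to 106) and EPCAM (666 to 437). They summed to 2809 to 3148 CPM in long-term shControl and to 2161 to 3041 in long-term knockdown, with 4 of the 11 at 0 there and 3 in each other group. Of 8 fibroblast markers, 5 were tested, of which PDGFRB (163 to 13 counts) and ACTA2 (45 to 10) fell and LUM (20 to 262) rose, again beside 15.8% lower and 13.7% higher of all genes, with sums of 836 to 895 and 882 to 1093 CPM. In short-term shControl and short-term knockdown LUM had 477 and 484 counts, so for LUM the long-term control stood apart. There PDGFRB had 81 and 42 counts and ACTA2 had 97 and 67. Endothelial and blood markers summed to at most 2.20 and 1.39 CPM in any library, and no marker of either passed the filter. The part of these markers in the results on the silent genes was not tested.

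Together the 33 genes had 6102 counts in long-term shControl and 87 in long-term FLCN knockdown. On the scale of CPM their summed level was 231 ± 8.56 (SD, n = 3) in short-term shControl, 190 ± 19.9 in short-term knockdown, 281 ± 13.2 in long-term shControl and 4.12 ± 0.718 in long-term knockdown. The last level was 1.46% of that in long-term shControl. In the 3 long-term knockdown libraries, 47 of the 99 values were 0, 25 were 1, 20 were 2, 6 were 3 and the highest was 4, whereas the lowest count in a long-term shControl library was 14. None of the 3 libraries stood out: they held 34, 24 and 29 counts of these genes, with 13, 17 and 17 genes at 0. Every long-term shControl count was above every long-term knockdown count for all 33, which the rule largely fixed (20.7% of all 13959 genes tested were lower without overlap).

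**Figure D1:**
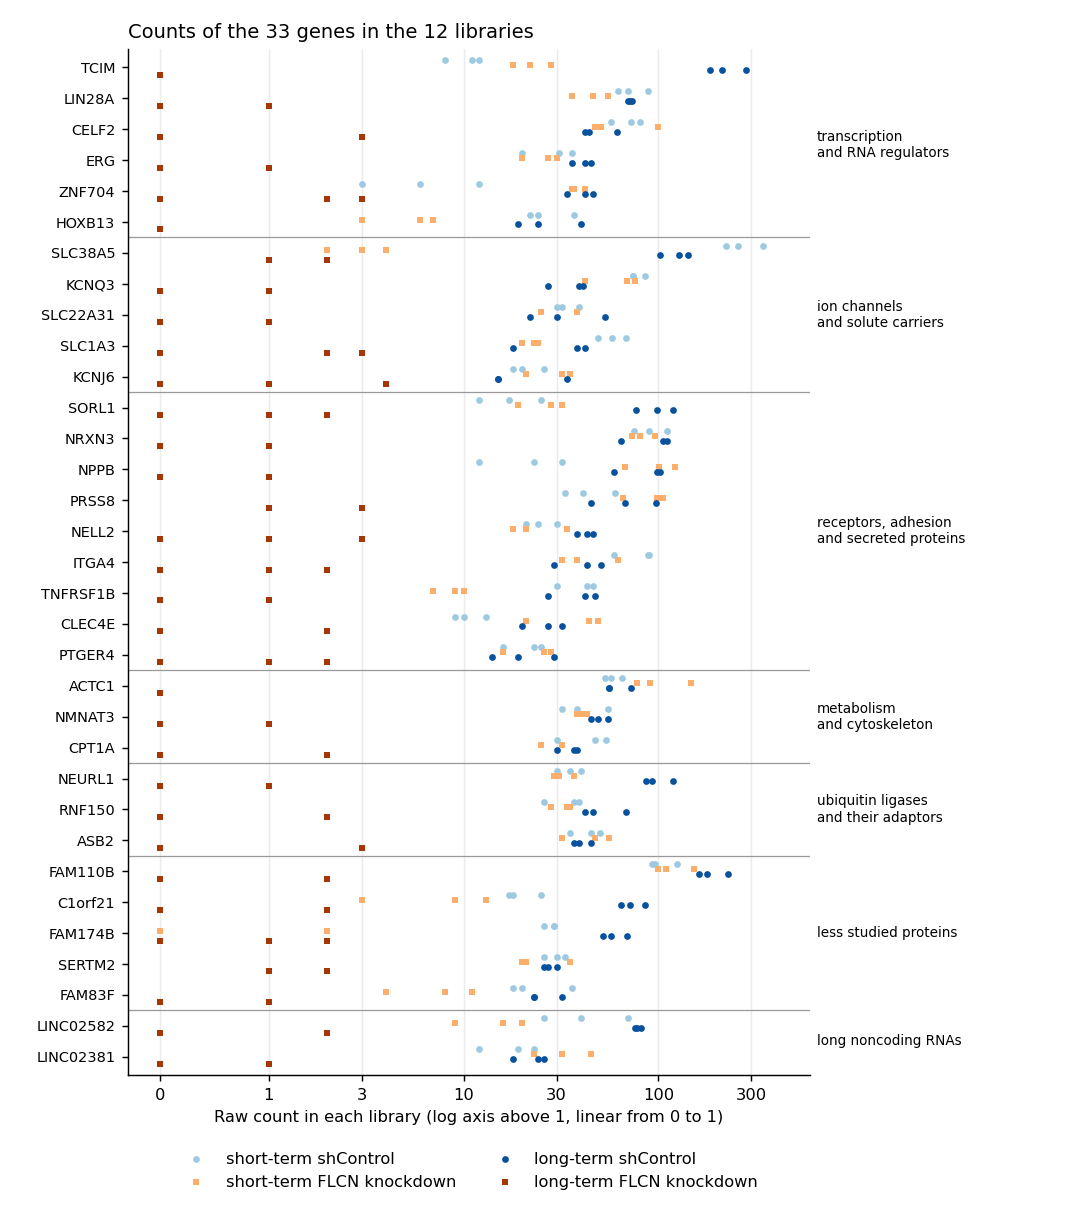
Raw counts of the 33 genes (rows, grouped by role) in each of the 12 libraries, with 3 points per group and gene, on an axis that is linear from 0 to 1 and logarithmic above. Long-term FLCN knockdown lies between 0 and 4 for all 33 genes, long-term shControl at 14 or above.

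Ratios of counts per TMM-scaled library size, in long-term shControl over long-term knockdown, ran from 12.6 to 277 in the 30 genes with at least 1 count in the knockdown, with a median of 53.0. Their 95% intervals, exact and for counting error only, had lower bounds down to 5.14, that of KCNJ6. With a floor of 3 counts in place of 0 in long-term knockdown, the ratios of the remaining 3 genes were 222 (TCIM), 60.5 (ACTC1) and 27.3 (HOXB13). The exact 95% lower bounds for these 3, with the observed 0, were 180, 48.7 and 21.7. The genes were expressed at low levels where they were on: CPM per kilobase of exon in long-term shControl had a median of 0.923, with a range from 0.146 to 17.0, and the median over all genes tested was 4.75. NPPB and TCIM, both short genes, were the highest on this scale, at 17.0 and 16.8. Of the 33 genes, 21 reached the minimum in all 3 other groups, 5 were under it in short-term shControl and 7 in short-term knockdown. The highest of the 4 group means in CPM was in short-term shControl for 13 genes, in short-term knockdown for 9 and in long-term shControl for 11. Some margins were small: by raw sums FAM83F, NRXN3, SLC22A31 and ZNF704 were instead highest in long-term shControl, and HOXB13 was level in both controls.

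Among the silent genes were 6 regulators of transcription or RNA, with sums of 83 to 676 counts in long-term shControl and 0 to 5 in long-term knockdown. TCIM, a small regulator linked to Wnt signaling, had 11, 8 and 12 counts in short-term shControl, 22, 28 and 18 in short-term knockdown, 280, 183 and 213 in long-term shControl and 0, 0 and 0 in long-term knockdown. It was highest in long-term shControl, and no 2 of the 4 groups overlapped. HOXB13, a homeobox factor of posterior tissues, had 37, 22 and 24 counts in short-term shControl, 6, 3 and 7 in short-term knockdown, 19, 24 and 40 in long-term shControl and 0, 0 and 0 in long-term knockdown. Both controls overlapped, and both knockdowns were below them. LIN28A, an RNA-binding protein of stem cells that blocks let-7 maturation, had 88, 62 and 70 counts in short-term shControl, 36, 55 and 46 in short-term knockdown, 71, 73 and 70 in long-term shControl and 1, 1 and 0 in long-term knockdown. ERG, an ETS factor known from endothelium, had 31, 36 and 20, then 20, 30 and 27, then 45, 42 and 36, then 1, 0 and 0 counts in the same order of groups. The short-term groups of ERG overlapped, and its ratio between the long-term groups was 121 (95% interval 21.4 to 4833). CELF2, a splicing regulator, had 147 counts in long-term shControl and 3 in long-term knockdown, all 3 in 1 library. ZNF704, a zinc finger protein, had 12, 3 and 6 counts in short-term shControl, 42, 36 and 37 in short-term knockdown, 34, 46 and 42 in long-term shControl and 3, 2 and 0 in long-term knockdown, so that 2 groups were low.

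Ion channels or solute carriers are encoded by 5 of the genes. SLC38A5, a sodium-coupled carrier of glutamine and other neutral amino acids, had 345, 256 and 223 counts in short-term shControl, 4, 3 and 2 in short-term knockdown, 128, 102 and 142 in long-term shControl and 2, 2 and 1 in long-term knockdown. Its 2 knockdown groups were both near 0, and the short-term sum of 9 counts exceeded the limit of 5. SLC1A3, a glutamate carrier of glia, had 68, 49 and 58 counts in short-term shControl, 23, 24 and 20 in short-term knockdown, 42, 18 and 38 in long-term shControl and 3, 0 and 2 in long-term knockdown. KCNQ3, a subunit of the M-type potassium channel, had 74, 85 and 74 counts in short-term shControl, 76, 69 and 42 in short-term knockdown, 27, 39 and 41 in long-term shControl and 0, 0 and 1 in long-term knockdown. For KCNQ3 the short-term groups overlapped in counts, though not in CPM, and long-term shControl was below short-term shControl. KCNJ6, a subunit of G protein-gated potassium channels, had 26, 18 and 20, then 35, 32 and 21, then 15, 15 and 34, then 1, 0 and 4 counts in the same order. It had the smallest ratio between the long-term groups, 12.6 (95% interval 5.14 to 40.2). SLC22A31, a member of the organic ion carrier family, had 105 counts in long-term shControl and 2 in long-term knockdown.

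Receptors, adhesion molecules or secreted proteins are encoded by 9 of the genes. NPPB, the precursor of B-type natriuretic peptide, had 32, 12 and 23 counts in short-term shControl, 101, 67 and 121 in short-term knockdown, 98, 59 and 102 in long-term shControl and 0, 0 and 1 in long-term knockdown. Its lowest and highest groups were thus the 2 knockdowns, with a ratio of 256 (95% interval 45.5 to 10134) between the long-term groups. TNFRSF1B, a receptor for tumor necrosis factor, had 46, 43 and 30 counts in short-term shControl, 10, 9 and 7 in short-term knockdown, 27, 47 and 42 in long-term shControl and 1, 0 and 0 in long-term knockdown. NRXN3, a neurexin of synaptic contacts, had 110, 75 and 89, then 96, 80 and 73, then 106, 64 and 111, then 0, 0 and 1 counts in the same order. The other 3 groups of NRXN3 overlapped, and its ratio of 277 (95% interval 49.4 to 10992) was the largest of the 30. SORL1, a sorting receptor of endosomes, had 12, 17 and 25 counts in short-term shControl, 32, 19 and 28 in short-term knockdown, 98, 77 and 118 in long-term shControl and 1, 0 and 2 in long-term knockdown. CLEC4E, a lectin receptor of innate immunity, had 10, 13 and 9, then 44, 49 and 21, then 20, 27 and 32, then 0, 2 and 0 counts. PRSS8, the serine protease prostasin of epithelia, had 41, 60 and 33, then 98, 105 and 66, then 45, 67 and 97, then 1, 1 and 3 counts. Both were highest in short-term knockdown by sum, although short-term knockdown and long-term shControl overlapped for each. ITGA4, an integrin subunit for binding to matrix and VCAM1, had 236 counts in short-term shControl, 132 in short-term knockdown, 123 in long-term shControl and 3 in long-term knockdown. PTGER4, a receptor for prostaglandin E2, and NELL2, a secreted protein with EGF-like repeats, had 62 and 127 counts in long-term shControl and 3 and 4 in long-term knockdown.

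Metabolism or the cytoskeleton is served by 3 of the genes. ACTC1, the alpha-actin of heart muscle, had 57, 53 and 65 counts in short-term shControl, 90, 78 and 146 in short-term knockdown, 56, 56 and 72 in long-term shControl and 0, 0 and 0 in long-term knockdown. Its paralogs are near-identical in coding sequence, and how the authors treated reads that match several genes is not given in the sources used here, so its counts are uncertain to that extent. CPT1A, which passes long-chain fatty acids on to carnitine for entry into mitochondria, had 54, 30 and 47, then 25, 32 and 25, then 37, 30 and 38, then 0, 2 and 0 counts. Apart from long-term knockdown, its groups ran into each other. NMNAT3, an enzyme of NAD synthesis in mitochondria, had 32, 38 and 55, then 41, 43 and 38, then 55, 45 and 49, then 1, 0 and 0 counts, again with overlap outside long-term knockdown.

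Ubiquitin ligases or their adaptors are encoded by 3 of the genes, of which NEURL1 had 298 counts in long-term shControl and 2 in long-term knockdown, RNF150 had 156 and 4, and ASB2 had 121 and 3. For NEURL1, named after the Drosophila gene neuralized, long-term shControl was the highest group, with 86, 93 and 119 counts against 29 to 40 in the short-term libraries. Of the less studied proteins, FAM110B, a protein of centrosomes, had the second largest sum in long-term shControl, with 162, 178 and 227 counts there and 2, 0 and 2 in long-term knockdown. FAM174B had 29, 26 and 29 counts in short-term shControl, 2, 0 and 0 in short-term knockdown, 52, 57 and 69 in long-term shControl and 2, 1 and 0 in long-term knockdown. It was thus close to 0 in both knockdowns and clearly counted in both controls. C1orf21 had 18, 25 and 17, then 13, 9 and 3, then 85, 64 and 71, then 0, 2 and 2 counts. FAM83F and SERTM2 had 78 and 83 counts in long-term shControl and 1 and 5 in long-term knockdown. The noncoding LINC02582 had 40, 70 and 26, then 20, 16 and 9, then 81, 78 and 76, then 2, 2 and 0 counts, and LINC02381 had 68 counts in long-term shControl and 2 in long-term knockdown. Reads of LINC02381, PTGER4 and NMNAT3 are uncertain, since an expressed gene overlaps each on the opposite strand (SMUG1, TTC33 and AC097103.2) and no strand setting is given. The overlap did not bring their counts above 3 in long-term knockdown.

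Since the rule used all 12 libraries, the choice was repeated on 2 replicates of each group, with limits of 3 and 40, and the third replicate was read. This gave 36, 33 and 29 genes, of which 29, 26 and 27 are among the 33. In the long-term knockdown library left out, the median count of these genes was 1, 1 and 0, with 13, 15 and 15 genes at 0 and a highest count of 6, 8 and 3. In the long-term shControl library left out, the medians were 42.5, 39 and 49. Each gene was lower in the left-out knockdown library than in the left-out shControl library. The same rule with the roles of the groups exchanged found 8 genes silent in long-term shControl, 4 in short-term shControl and 1, FAM174B, in short-term knockdown. All 4 of short-term shControl (FAM43B, HDHD3, PTPRN and ZNF182) were also among the 8 of long-term shControl, and these genes are named after their values were seen.

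**Figure D2:**
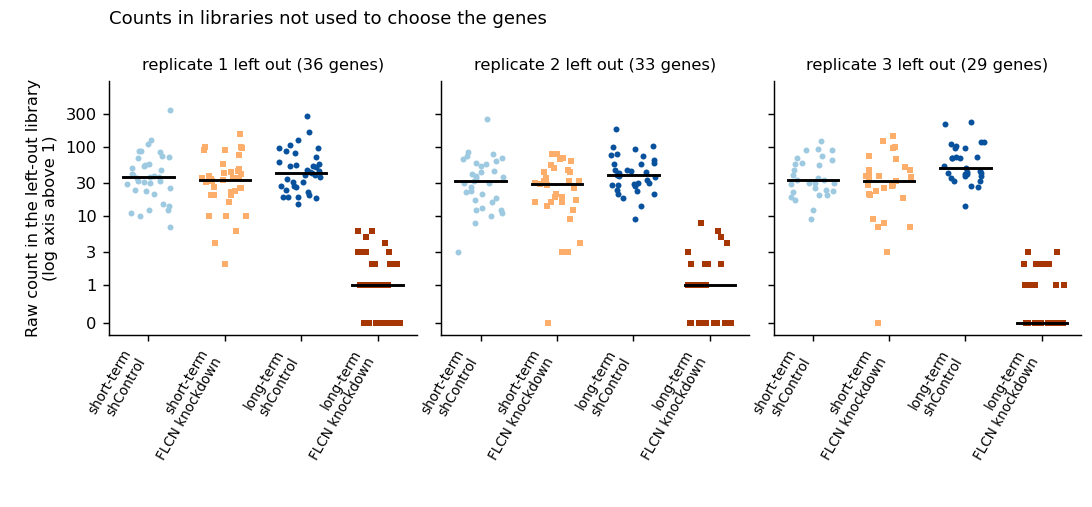
Raw counts in the libraries left out, for the genes chosen on the other 2 replicates (one panel per replicate left out; points are genes, spread sideways at random, and black lines are medians). Medians in long-term FLCN knockdown are 1, 1 and 0, and those in long-term shControl 42.5, 39 and 49.

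The short-term comparison of the silent genes was read only where the rule fixed no direction. The rule sets the same minimum on both short-term groups, and 21 genes reached it in both. Their sums still entered the choice, so that genes low in both short-term groups are missing. Genes that changed across the minimum between these groups are left out of the 21 as well. The values below thus describe the 21 and cannot show whether the silent genes as a set had already moved. With edgeR's quasi-likelihood test and Benjamini-Hochberg adjustment over 13959 genes, 3 of the 21 had an adjusted p below 0.05, 2 of them higher and 1 lower in short-term knockdown. That is 14.3%, beside 10.3% of all genes tested (5.62% higher and 4.71% lower). The 21 were limited by their short-term sums and all genes were not, so no conclusion is drawn from these shares or those that follow. In CPM the groups did not overlap for 7 of the 21, 4 higher and 3 lower (15.2% and 15.0% of all genes tested). With a fold change of at least 2.5 required as well, 1 of the 21 was higher and 1 lower (1.12% and 0.673% of all genes tested). The other 12 genes entered with 1 short-term group under 60 counts and so had to differ between these groups; their values are given without a p-value.

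The 3 called genes with both short-term sums at the minimum were NPPB, PRSS8 and SLC1A3. NPPB rose in short-term knockdown by a log2 fold change of 2.13 (SE 0.325, edgeR adjusted p = 3.84e-04) from 3.27 ± 1.31 to 14.7 ± 6.03 CPM (SD, n = 3). PRSS8 rose by 0.99 (SE 0.267, edgeR adjusted p = 0.0233) from 6.63 ± 2.16 to 13.1 ± 1.95 CPM. SLC1A3 fell, with a log2 fold change of −1.38 (SE 0.279, adjusted p = 0.00353 by edgeR), from 8.62 ± 1.02 to 3.32 ± 0.355 CPM. So 2 of these genes were higher in short-term knockdown and at or near 0 in long-term knockdown, and 1 was lower in both. PRSS8 lost its call without short-term shControl replicate 1 or 3 or without short-term knockdown replicate 1 or 2 (edgeR adjusted p up to 0.117).

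Among the 12 genes with 1 short-term sum under the minimum, 5 passed through short-term knockdown, where they had the higher level. ZNF704 had 1.01 ± 0.595 CPM (SD, n = 3) in short-term shControl and 5.71 ± 0.727 in short-term knockdown, CLEC4E had 1.58 ± 0.338 and 5.48 ± 1.73, and TCIM had 1.53 ± 0.336 and 3.35 ± 0.671. LINC02381 and SORL1 had 2.65 ± 0.721 and 2.72 ± 1.15 CPM in short-term shControl and 4.81 ± 0.820 and 3.93 ± 1.09 in short-term knockdown. The other 7 passed through short-term shControl. SLC38A5 had 40.4 ± 6.20 CPM there and 0.433 ± 0.0763 in short-term knockdown, so this carrier was near 0 in both knockdowns. HOXB13 (4.06 and 0.812 CPM), TNFRSF1B (5.84 and 1.27), FAM83F (3.60 and 1.13), LINC02582 (6.73 and 2.15) and C1orf21 (2.98 and 1.16) were low but still counted in short-term knockdown. For FAM174B the ratio of short-term shControl over short-term knockdown, on the same scale as the long-term ratios, was 42.3 (95% interval 11.3 to 355, counting error only).

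The remaining 18 of the 21 genes were not called in the short-term comparison, with log2 fold changes between −0.84 and 0.88. Nearest to the threshold were ITGA4 (−0.84, SE 0.263, edgeR adjusted p = 0.0502), ACTC1 (0.88, SE 0.285, edgeR adjusted p = 0.0670) and LIN28A (−0.67, SE 0.222, edgeR adjusted p = 0.0671). All 3 were called under some alternatives, such as no filter on low counts (edgeR adjusted p = 0.00671 for ITGA4, 0.00107 for ACTC1 and 0.0487 for LIN28A). Single libraries weighed on the values, since ACTC1 was 0.40 without short-term knockdown replicate 3 and LIN28A −0.42 without replicate 1. Over the libraries left out, adjusted p ran from 0.0323 to 0.294 for ACTC1, from 0.0169 to 0.213 for ITGA4 and up to 0.293 for LIN28A, which none of these fits called (edgeR). The SE of the others, such as 0.281 for CPT1A at −0.67 and 0.299 for ERG at −0.16, leaves room for changes of a size that these counts could not show.

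Between short-term and long-term shControl some of the genes differed, given here without a test because the rule used both groups. The 5 genes under 60 counts in short-term shControl, TCIM, ZNF704, SORL1, CLEC4E and LINC02381, had to reach 60 in long-term shControl. In 7 genes the mean level in long-term shControl was at least 2-fold above that in short-term shControl, and in 3 it was at least 2-fold below. TCIM was 20.1-fold higher in the fit, ZNF704 5.42-fold, SORL1 5.00-fold, NPPB 3.59-fold, C1orf21 3.41-fold, NEURL1 2.65-fold and CLEC4E 2.30-fold. SLC38A5 was 2.36-fold, KCNQ3 2.32-fold and ITGA4 2.06-fold lower.

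On the chromosomes the 33 genes were mostly far apart, and only 2 pairs lay within 1 Mb of each other. KCNJ6 and ERG are neighbors on chromosome 21, 259 kb apart, and KCNJ15, another potassium channel gene, lies between them (GRCh38, chr21:38155549-38307357). KCNJ15 had 130, 105 and 120 counts in short-term shControl, 155, 117 and 98 in short-term knockdown, 25, 18 and 14 in long-term shControl and 0, 0 and 0 in long-term knockdown. With 57 counts in long-term shControl it missed the minimum of 60, and these 3 genes, in a row among the genes tested, had at most 5 counts each in long-term knockdown. The next tested genes were counted: DYRK1A past KCNJ6 had 979 counts in long-term shControl and 923 in long-term knockdown, and ETS2 past ERG had 813 and 391. DYRK1A thus kept its level on one side, and ETS2 on the other side was lower.

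NPPB (chr1:11857464-11858931) and TNFRSF1B (chr1:12167003-12209228) are 308 kb apart on chromosome 1. Between them KIAA2013, PLOD1, MFN2, MIIP and TNFRSF8 stayed on, with 135 to 3621 counts in long-term knockdown and 209 to 4865 in long-term shControl. NPPB and TNFRSF1B were therefore single silent genes among expressed ones. Next to NMNAT3 on chromosome 3, at 257 kb, CLSTN2 (chr3:139935185-140577397), a calsyntenin, had 1916, 1496 and 1989 counts in long-term shControl and 2, 3 and 4 in long-term knockdown. Its sum of 9 was over the limit of 5, although its count in the control was far above that of any of the 33. On the other side of NMNAT3, COPB2 had 12171 and 9855 counts.

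**Figure D3:**
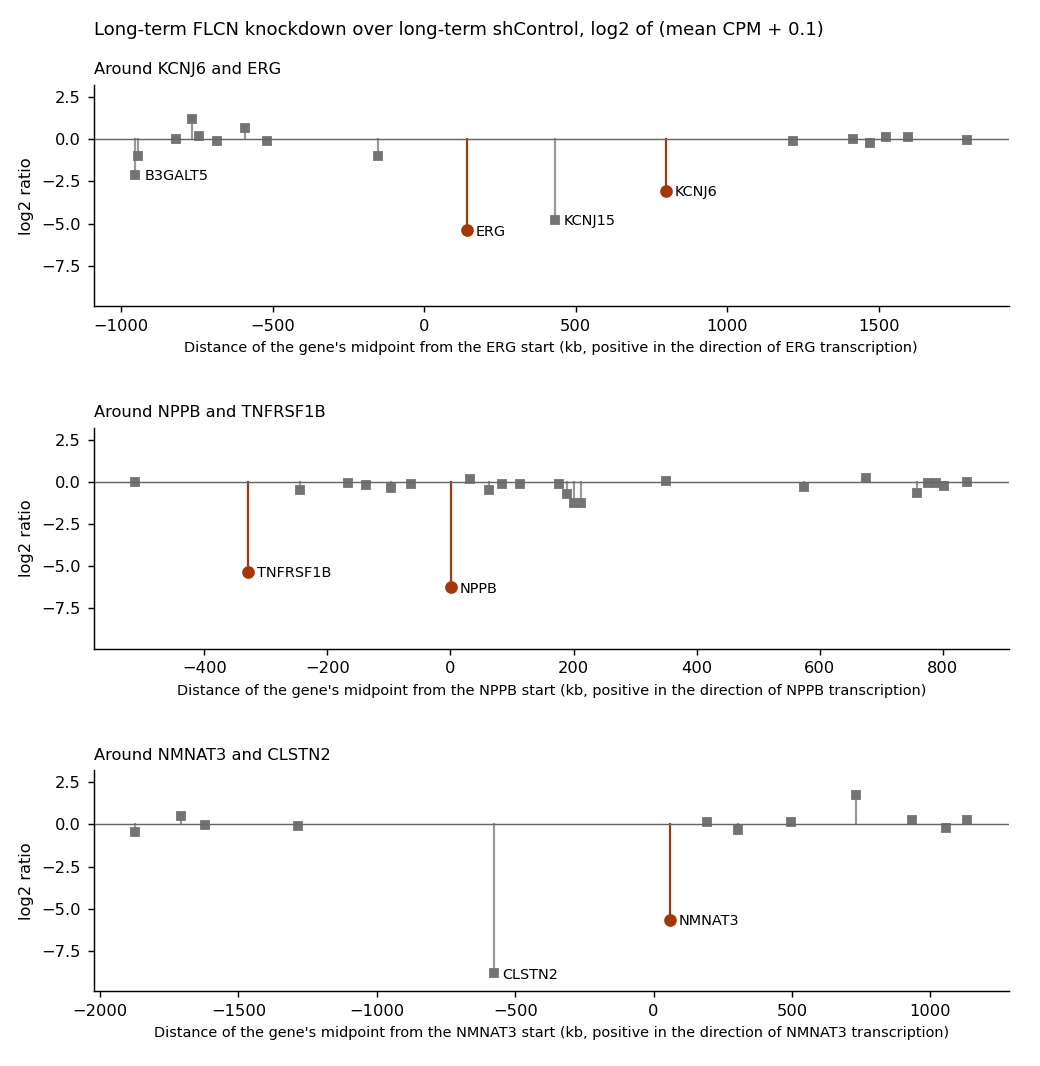
Log2 ratio of mean CPM plus 0.1 in long-term FLCN knockdown over long-term shControl for genes around 3 loci, against the distance of each gene's midpoint from the start of ERG, NPPB or NMNAT3 in kb. Red circles are genes of the 33; KCNJ15 between KCNJ6 and ERG and CLSTN2 beside NMNAT3 are low like them, while the genes between NPPB and TNFRSF1B are near 0 on this scale.

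Over all 33 loci, silence did not extend to the neighbors as a rule. Among genes with at least 30 counts in long-term shControl, 6 of 468 within 1 Mb of one of the 33 had at most 10 counts in long-term knockdown (1.28%), and 148 of 13347 did so over all genes on the chromosomes outside the 33 (1.11%). These 6 were KCNJ15, CLSTN2, SERPINA6, DIO2, TMEM63C and AC023301.1, named after their values were seen. The 315 nearest tested genes, 5 on each side of each locus, had a median long-term log2 fold change of −0.038, with 18.4% lower and 14.3% higher at an adjusted p below 0.05 (15.8% and 13.7% of all genes tested). The 33 genes were long, with a median of 79.0 kb from start to end against 29.6 kb for all genes tested, while the exons summed to a median of 4.96 kb against 4.79 kb.

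By symbol, 173 relatives of the 33 genes were taken, of which 104 had too few counts to be tested, 47 of them none in any library. No relatives were taken for C1orf21, ERG, LINC02381, LINC02582, RNF150, SORL1, TCIM and ZNF704, so the values below do not cover these genes. The other 69 were tested in long-term knockdown against long-term shControl, and 13 were higher and 13 lower (13.7% and 15.8% of all genes tested). With the replicate number as a block in the long-term groups, 14 were higher and 17 lower, against 16.4% and 18.3% of all genes, with SLC38A1 added to the higher and HOXB7, ITGA3, ITGAV and SLC22A5 to the lower ones. Other HOXB genes went both ways: of 6 tested, HOXB2 (log2 fold change 1.34, edgeR adjusted p = 0.00103), HOXB6 (1.41), HOXB8 (1.77) and HOXB9 (0.44) rose. HOXB4 (64 to 30 counts, −1.06, edgeR adjusted p = 0.0629) and HOXB7 (317 to 230 counts, −0.45, edgeR adjusted p = 0.0540) had lower values that were not called, apart from HOXB7 under that block (edgeR adjusted p = 0.0396). The actins differed by type. ACTG2 of smooth muscle had 63 counts in long-term shControl and 3 in long-term knockdown (edgeR adjusted p = 1.93e-04) and ACTA2 had 45 and 10 (0.00622 likewise), while the cytoplasmic ACTB (−0.049) and ACTG1 (0.22) were not called. MYL7, a myosin light chain of the heart, just missed the limit with 249 counts in long-term shControl and 6 in long-term knockdown. None of these relatives was chosen before its value was seen.

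In the fatty acid step served by CPT1A, no other CPT1 gene was on: CPT1B and CPT1C had at most 3 counts in any group. CPT1A was thus the only CPT1 gene with counts to lose, and CPT2, the enzyme of the next step inside mitochondria, rose from 150 to 279 counts (log2 fold change 0.92, SE 0.182, edgeR adjusted p = 9.21e-04). LIN28B also had at most 3 counts in any group, so LIN28A had no expressed relative either. For other members a relative stayed on: SLC1A5 had 4360 counts in long-term knockdown, SLC38A2 11307, TNFRSF1A 4210 and NMNAT1 120, the last higher than in long-term shControl (log2 fold change 1.13, edgeR adjusted p = 0.00500). Of the 13 relatives that fell, 4 had at most 5 counts in long-term knockdown: KCNJ15 (57 to 0), ACTG2, KCNQ1 (37 to 3) and SLC38A4 (28 to 1). The other 9 were still counted there. They were ACTA2, SLC1A1 (81 to 13), ITGA7 (59 to 19), ITGA2 (97 to 48), PTGER2 (279 to 136), ITGA1 (501 to 283), ITGA6 (515 to 297), KCNQ5 (425 to 291) and the protease gene PRSS23 (10254 to 6897).

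Genes that write, read or erase silencing marks are given as listed, not as they moved. Of 18 DNA methylation enzymes and readers, 17 were tested in the long-term comparison, and 4 were higher and 2 lower (13.7% and 15.8% of all genes tested), with a median log2 fold change of 0.10 against 0.00095 for all genes tested. DNMT3B, a methyltransferase that sets new methyl groups, was lower in long-term knockdown than in long-term shControl, with a log2 fold change of −1.68 (SE 0.168, adjusted p = 7.68e-07 by edgeR). It had 371 counts in short-term shControl, 299 in short-term knockdown, 998 in long-term shControl and 303 in long-term knockdown, so it was the long-term control that stood apart. UHRF1, which guides DNMT1 to replicated DNA, was lower by a log2 fold change of −0.70, with 1886, 1323, 2364 and 1415 counts in the same order. DNMT1 itself was not called (0.10). The demethylating TET2 rose by 2.37 (SE 0.256, edgeR adjusted p = 1.91e-06) and TET1 by 1.77, and ZBTB4 and ZBTB38, which bind methylated DNA, by 1.15 and 0.50. TET2 had 234 counts in short-term shControl, 202 in short-term knockdown, 46 in long-term shControl and 238 in long-term knockdown, so that here too the long-term control stood apart. Of 14 genes of histone H3 lysine 9 methylation and the HUSH complex, MPHOSPH8 was higher (1.29) and MORC2 lower (−0.49) in long-term knockdown, again beside 13.7% and 15.8% of all genes, with a median of 0.087. In the same order of groups MPHOSPH8 had 736, 726, 411 and 1003 counts and MORC2 had 1037, 943, 1262 and 885. In the short-term comparison TET3 and ZBTB4 were higher and UHRF1 lower in the first list (5.62% and 4.71% of all genes tested), and none of the 14 in the second was called. The part of these genes in the silence of the 33 was not tested.

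Promoter sequences of 20 of the 33 genes matched the RefSeq table. In the 250 bases before the start, the 20 had a median of 12.5 CpG, from 1 (SLC1A3) to 45 (SORL1), against 21 for the 10052 tested genes with a promoter and 11 for all 35116 promoters. Of the 20, 11 (55.0%) held at least 10 CpG, against 85.8% of tested genes and 52.2% of all promoters. The first 50 transcribed bases matched a GENCODE transcript of the gene for 10 of the 20, among them the 5 shown above. These 10 had a median of 19.5 CpG, from 2 to 45, close to that of tested genes, and the 10 without a match, SLC1A3, CELF2 and NEURL1 among them, had a median of 10. At least 10 CpG stood in 6 of the 10 matched and 5 of the 10 unmatched promoters, both below the 85.8% of tested genes. Starts of the other tested genes were not matched in this way. The matched ones ranged from dense CpG (SORL1 and ERG) to hardly any (CLEC4E and NRXN3). The word CACGTG, the same on both strands, stood in 5 of the 20 (ASB2, FAM174B, LINC02381, SLC38A5 and SORL1), or 25.0%, against 9.06% of tested genes and 6.34% of all promoters. TATAAA on either strand stood in 1, ACTC1, and TGACTCA in 0 of the 20, which says only that these letters are not in these windows. Of the 5 genes with CACGTG, ASB2, FAM174B and SORL1 had a matched start. RefSeq starts were not checked against the starts used in HK2 cells.

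The limits left close cases on both sides. Just inside the upper limit, with 5 counts in long-term knockdown, were KCNJ6, SERTM2, SLC1A3, ZNF704, PRSS8 and SLC38A5, and just outside were MYL7, LTB, FMN2 and ZNF585B with 6 and FBLN2 with 7. The sum that decided the lower limit was 60 for C1orf21, 62 for PTGER4, 64 for KCNJ6 and 68 for TCIM and LINC02381. It was 58 for PRKCB and DOK7, 57 for KCNJ15, 56 for MYO7A and 55 for GRIA4, which stayed out.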

How the data were processed

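PolyA RNA of 12 HK2 libraries was sequenced (4 groups of 3). Per the labels and the study's methods, the authors used a TruSeq RNA kit, trimmed reads with fastp, mapped them to GRCh38 with STAR, counted them per gene with featureCounts and tested with DESeq2; versions, annotation release and strand setting are not given in the sources used here. The deposited table holds raw counts, which equal the authors' per-library counts in all values (0 differ), and normalized values of the unit score, which the authors deposited beside them and which were not used here.

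The 33 genes and all lists were chosen with earlier results of these data known. Genes were chosen on sums of raw counts. Raw counts were fitted in R 4.3.3 with edgeR 4.0.16: filterByExpr with the 4 groups left 13959 genes with 99.8% of the counts, and a robust quasi-likelihood model of the 4 group means, with TMM factors and a prior count of 0.125, was fitted to the 12 libraries at once. Two-sided p-values were adjusted by Benjamini-Hochberg across these genes, and a call is an adjusted p below 0.05. SE is the absolute log2 fold change over the square root of F. The biological coefficient of variation was 12.0%. CPM use TMM library sizes. On simulated counts with 200 changed genes, the short-term fit called 187 of them, and 11 others. Depth limits the precision: libraries held 5825779 to 8991051 counts, and intervals (exact, 95%) and the floor of 3 counts cover counting error only.

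IDs were matched to GENCODE 29: 55661 with the same version, 2364 with another version (C1orf21, KCNJ6, ACTC1 and NMNAT3 among the 33) and 263 not matched. Families were formed by symbol stem, without the ZNF, RNF and LINC stems. Promoters come from RefSeq (GRCh38.p14), without the transcribed bases. Named are FLCN, the 12 genes with the highest CPM in long-term shControl, those with 0 counts in long-term knockdown, those called in the short-term comparison, those within 1 Mb of each other or of one family (HOX, SLC, KCN, FAM, LINC) and the 5 nearest to each limit on either side. The other genes of the 33, and other genes named, were added after their values were seen, apart from the listed markers and silencing genes. Alternatives were other limits, sums scaled for library size, RLE factors, DESeq2 1.42.0, no filter or a mean of 10 CPM, only the groups compared, the replicate number as a block (for the long-term groups too, whose same-numbered libraries had correlations of 0.284, 0.123 and 0.458), the per-library files, a fold limit of 2.5, other numbers of neighbors and leaving out each library.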

Additional observations from a re-analysis of the deposited data

Results flagged for a closer look

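In 4 of the 21 silent genes with both short-term sums at the minimum, knockdown and shControl libraries differed in opposite directions at the 2 times: in CPM they were higher in every short-term FLCN knockdown library than in any short-term shControl library, while every long-term knockdown library was below every long-term shControl library. Over all genes tested, 15.2% were higher without overlap in short-term knockdown and 20.7% were lower without overlap in long-term knockdown. The 4 of 21 are not read as standing out from the first of these shares. The short-term log2 fold changes of the 4 genes were 2.13 for NPPB, 0.99 for PRSS8, 0.88 for ACTC1 and 0.44 for KCNJ6. NPPB and PRSS8 were called in the short-term comparison, PRSS8 losing its call in 4 of the 6 fits that left out 1 short-term library, and ACTC1 and KCNJ6 were not called. TCIM, ZNF704, CLEC4E and LINC02381 had the same pattern, but both their directions followed from the way they were chosen. For the 4 genes the long-term direction was fixed in that way, so the difference between the 2 times was not tested.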

How the results depend on the processing

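The number of silent genes follows its limits. It was 3 with a limit of 0 counts in long-term knockdown, 16 with 2 and 56 with 10, and 79 with a minimum of 30, 12 with a minimum of 120 and 21 with the minimum in all 3 other groups. Sums scaled for library size gave 31 genes, 30 of them shared, and leaving out 1 replicate of each group, with the limits lowered to 3 and 40, gave 29 to 36. In the short-term comparison, 2 of the 21 genes with both short-term sums at the minimum were higher and 1 lower (5.62% and 4.71% of all genes), a restriction chosen after seeing the data. The counts were 2 and 2 with RLE factors or only the 2 short-term groups, 3 and 3 with low genes kept in the fit, 1 and 1 with a fold limit of 2.5, 0 and 0 with a mean of 10 CPM, and 1 to 2 and 1 to 2 with single libraries left out, with 1 higher without short-term shControl replicate 1 or 3 and 2 lower without shControl replicate 2 or knockdown replicate 2. Over all 33, the comparison as planned gave 5 higher and 8 lower, but 10 of these are among the 12 genes that had to differ by the way they were chosen, so the count is not read as a result. It was 3 and 7 with the fold limit, 0 and 1 with a mean of 10 CPM, a filter that only 2 of the 33 passed, and 3 to 5 and 6 to 8 with single libraries left out, with 3 higher without short-term shControl replicate 1. Over all genes, 784 were higher and 657 lower, 156 and 94 with the fold limit of 2.5, and 471 to 683 and 403 to 575 with single libraries left out.

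The replicate number as a block gave 1277 higher and 1082 lower genes, and 3 higher and 3 lower of the 21 (7 and 10 of the 33, the 12 genes included). Same-numbered short-term libraries had correlations of 0.0172, 0.111 and 0.0540, not all above 0.1, so the number was not taken as a pairing there. Short-term shControl replicate 1 correlated best with knockdown replicate 3 (0.0541). Same-numbered long-term libraries had correlations of 0.284, 0.123 and 0.458, all above 0.1, so by this measure the number pairs these libraries, although the labels name no shared culture. The pairing was not clean, since long-term knockdown replicate 2 correlated better with long-term shControl replicate 1 (0.231). Nor was it particular to these groups: same-numbered short-term knockdown libraries had 0.279, 0.150 and 0.467 with long-term shControl, and 0.223, 0.292 and 0.455 with long-term knockdown. The long-term values in the report are from the fit without a block, unless a block is named. A block in the long-term groups, an alternative chosen after seeing the data, gave 2292 higher and 2553 lower genes against 1909 and 2210, and 14 higher and 17 lower of the 69 relatives against 13 and 13. FLCN was −0.69 with this block (edgeR adjusted p = 0.00468). It added calls for HOXB7, ITGA3, ITGAV, SLC22A5, SLC38A1, MBD3 and SLC5A2 and took none from the genes named.

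Of 253 values of the 21 genes under alternatives, 219 kept direction and side of the threshold, 4 lost a call (PRSS8, with single libraries left out), 12 gained one (ACTC1, ITGA4 and LIN28A) and 18 changed sign. These 18 were all in uncalled genes with 1 library left out. Their log2 fold changes then ranged from −0.11 to 0.26 (ASB2), −0.38 to 0.078 (CELF2), −0.34 to 0.092 (ERG), −0.25 to 0.13 (NELL2), −0.35 to 0.039 (NEURL1), −0.26 to 0.25 (NMNAT3), −0.15 to 0.36 (PTGER4), −0.22 to 0.077 (RNF150), −0.65 to 0.048 (SERTM2) and −0.55 to 0.039 (SLC22A31). The cause was not tested. The median of the genes beside the 33 loci was −0.038, −0.065 with 10 on each side and −0.017 within 1 Mb. Sums of 60 counts limit what single libraries can show.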
